A study of Mus musculus with 15 samples.

Results

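Dimethylation of histone H3 at lysine 4 (H3K4me2) was compared between secretory progenitors (Sec-Pro) and enterocyte progenitors (Ent-Pro) of the mouse intestinal crypt. Each lineage had 2 ChIP-seq libraries with 1 deposited peak list each, 4 of the 15 samples of the series and 4 of its 12 peak lists. All mice were C57BL/6, and the sources used here do not give their age. The first Sec-Pro library came from crypts with Rbpj deleted (Rbpj-/-), and the second from crypts of mice given the Notch inhibitor dibenzazepine (DBZ). Both Ent-Pro libraries, replicates 1 and 2, came from crypts of Atoh1-/- mice, which make no secretory cells. The sources used here name neither the Cre line nor the time of either deletion. Sec-Pro were enriched in whole crypts, with no sort stated, so how many other crypt cells they held is unknown. Every Ent-Pro library carried the Atoh1 deletion and every Sec-Pro library a block of Notch signalling, so lineage and genotype or treatment cannot be told apart. Per the labels, nothing shows that the libraries of 1 lineage came from separate animals, and the p-values then measure only the spread between these libraries. Peak lists hold no RNA levels, so the cell type labels could not be checked against marker genes.

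Crypt progenitors choose between the secretory and the absorptive fate through lateral inhibition. A cell with active Notch signalling, which acts through the DNA-binding protein RBPJ, represses Atoh1 and becomes an enterocyte, and a cell that escapes Notch expresses ATOH1 and becomes secretory. H3K4me2 is a mark of promoters and enhancers that can be present at an enhancer before it is active, whereas H3K27ac marks those in use and DNase I hypersensitivity (DHS) marks open chromatin. The comparison asks how far this mark differs between progenitors of opposite fates.

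The length of the lists differed more within a lineage than between lineages. The lists held 63293 peaks in Rbpj-deleted Sec-Pro and 92279 in DBZ Sec-Pro, against 85881 and 64138 in Ent-Pro replicates 1 and 2. They covered 57.0 and 75.0 Mb in Sec-Pro, against 74.0 and 57.7 Mb in Ent-Pro. In either lineage 1 list was long and 1 short, and the groups overlapped fully. The shortest peak was 200 bp in Rbpj-deleted Sec-Pro and in Ent-Pro replicate 2, and 146 bp in DBZ Sec-Pro and in Ent-Pro replicate 1. The sources used here do not say why. Each list could thus be paired with a list of the other lineage that had the same shortest peak. Without read numbers, the lack of a peak in a list does not show that the mark was absent from the cells.

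Peak width did not separate the lineages when their lists were taken as groups. The median peak measured 604 bp in Rbpj-deleted and 500 bp in DBZ Sec-Pro, against 518 and 621 bp in Ent-Pro replicates 1 and 2. These averaged 552 ± 73.5 bp for the Sec-Pro lists and 569.5 ± 72.8 bp for the Ent-Pro lists (SD, n = 2 each), with an exact two-sided permutation p = 0.667. The smallest p that 2 libraries against 2 allow is 0.333. The difference between the kinds of list within a lineage was thus larger than the difference between lineages, which was -17.5 bp for Sec-Pro minus Ent-Pro. Among peaks of at least 200 bp the medians were 604 and 642 bp in Sec-Pro, against 660 and 621 bp in Ent-Pro, again 17.5 bp lower on average in Sec-Pro. Within both pairs of equal shortest peak the Sec-Pro median was the lower, at 500 against 518 bp and at 604 against 621 bp. The same held among peaks of at least 200 bp, and neither was tested within the pairs. Wide domains also overlapped in number, with 403 and 505 peaks of at least 5 kb in Sec-Pro, against 621 and 370 in Ent-Pro (exact two-sided permutation p = 1). Within the pairs of equal shortest peak, these numbers of wide peaks went opposite ways, at 403 against 370 and at 505 against 621. The longest peaks measured 26281 and 36011 bp in Sec-Pro, against 27508 and 24105 bp in Ent-Pro.

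Of the several properties tested by permutation with 1 value per library, only 1 did not overlap between the lineages, and it is described here for that reason. Overlapping or adjoining peaks of the 4 lists were merged into 91486 regions, of which 42470 (46.4%) carried a peak in every list. Of those 42470 regions, 23.9% and 26.0% were broken into several peaks in Rbpj-deleted and DBZ Sec-Pro, against 22.4% and 22.7% in Ent-Pro replicates 1 and 2. Both Sec-Pro lists were above both Ent-Pro lists, at 25.0 ± 1.47% in Sec-Pro and 22.5 ± 0.218% in Ent-Pro (SD, n = 2 each). The exact two-sided permutation p was 0.333, the smallest this design allows, so the difference could not pass a threshold. The bases covered at the same regions had medians of 957 and 1171 bp in Sec-Pro, against 1174 and 973 bp in Ent-Pro, and overlapped.

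**Figure D1:**
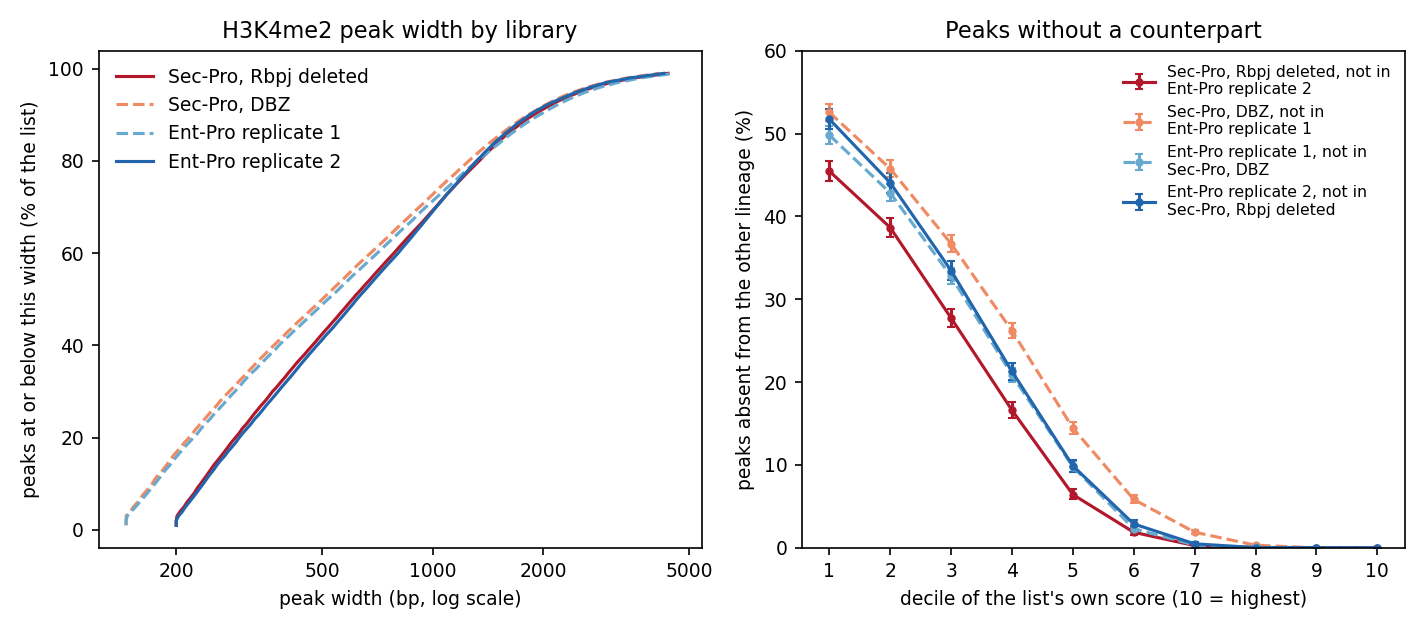
Left, cumulative share of peaks (percent of the list) against peak width (bp, log scale, 1st to 99th percentile) for the 4 H3K4me2 lists, with lists whose shortest peak is 146 bp dashed. Right, share of peaks in each decile of a list's own score that no peak of the other lineage overlaps, between lists of equal shortest peak, with Wilson 95% intervals that cover counting error only. Up to the median the width curves pair by shortest peak rather than by lineage, and at the 90th percentile they pair by neither. The absent peaks lie in the lower deciles of every list.

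Peaks without a counterpart in the other lineage were nearly all low-scoring and short. The authors' score was ranked within each list, cut into 10 deciles and compared within pairs of equal shortest peak. In the lowest decile, 45.5% of the peaks of Rbpj-deleted Sec-Pro had no overlapping peak in Ent-Pro replicate 2, and 51.8% the other way round. In the same decile 52.6% of the peaks of DBZ Sec-Pro had none in Ent-Pro replicate 1, and 49.8% the other way round. The share fell with every step up to the seventh decile in each of these comparisons. In the seventh decile it was 0.269% for Rbpj-deleted Sec-Pro and 1.89% for DBZ Sec-Pro, against 0.338% for Ent-Pro replicate 1 and 0.483% for Ent-Pro replicate 2. In the highest decile it was 0 in all 4 lists. For DBZ Sec-Pro that was 0 of 9227 peaks, with an upper Wilson 95% bound of 0.0416%. The median width of DBZ Sec-Pro peaks was 190 bp in the lowest decile and 1807 bp in the highest, so score and width were not separate measures of a peak.

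Presence of the mark varied with the kind of list. Among regions missing from exactly 1 list, 4632 lacked Rbpj-deleted Sec-Pro, 682 lacked DBZ Sec-Pro, 262 lacked Ent-Pro replicate 1 and 3320 lacked Ent-Pro replicate 2. The 2 shorter lists, 1 of either lineage, thus made up most of those gaps. Regions in a single list numbered 1403 and 14233 in Rbpj-deleted and DBZ Sec-Pro, against 9478 and 1412 in Ent-Pro replicates 1 and 2. These single-list regions had a median length of 204 bp, regions in exactly 2 lists 367 bp, regions in exactly 3 lists 566 bp and regions in all 4 lists 1323 bp.

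**Figure D2:**
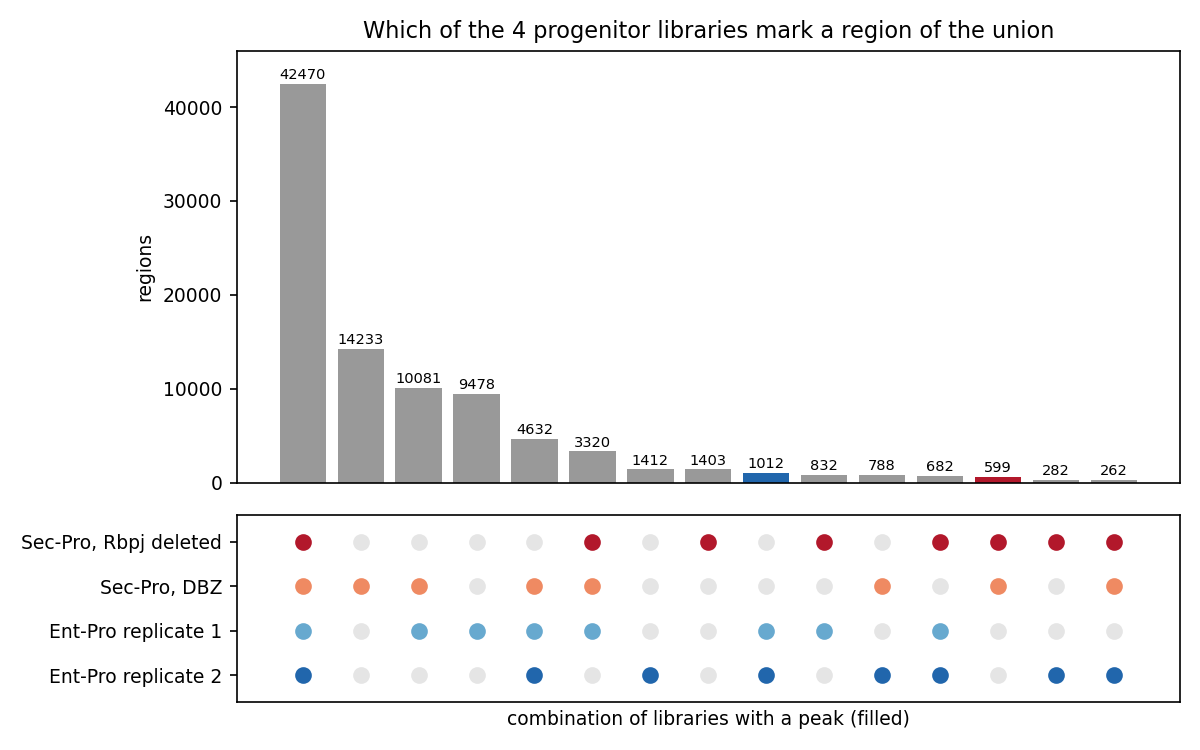
Number of regions (bars, with the count above each) for each combination of the 4 libraries that held a peak (filled dots). The combination of both Sec-Pro and no Ent-Pro library (red, 599 regions) and that of both Ent-Pro and no Sec-Pro library (blue, 1012 regions) are among the smaller ones.

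Regions that followed lineage in all 4 libraries were few and weak. Sec-Pro marked 599 regions in both of its libraries and Ent-Pro in none, which is 0.655% of the 91486. The reverse held at 1012 regions, 1.11%. Combinations of 1 list from either lineage, also of unequal shortest peak, gave like numbers. They were 832 for Rbpj-deleted Sec-Pro with Ent-Pro replicate 1 and 788 for DBZ Sec-Pro with replicate 2. At equal shortest peak, DBZ Sec-Pro with replicate 1 gave 10081 and Rbpj-deleted Sec-Pro with replicate 2 gave 282. The 599 and 1012 regions, called Sec-Pro-only and Ent-Pro-only, were ranked by the lower of their score percentiles in the 2 libraries that marked them. That percentile had a median of 11.1 in Sec-Pro-only and 10.5 in Ent-Pro-only regions, so most belonged to the lowest-scoring peaks of their lists. It exceeded 25 in 75 Sec-Pro-only regions (12.5%) and in 122 Ent-Pro-only regions (12.1%), and 50 in 1 Sec-Pro-only and 3 Ent-Pro-only regions. The counts of 599 and 1012 rose whenever a library was left out, which also loosens the rule, since fewer lists must then hold or lack a peak. Without Rbpj-deleted Sec-Pro they were 15174 Sec-Pro-only and 1795 Ent-Pro-only regions, and without DBZ Sec-Pro 2274 and 6034. Without Ent-Pro replicate 1 they were 4263 and 2805, and without Ent-Pro replicate 2 they were 917 and 11050.

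Part of the Sec-Pro-only and Ent-Pro-only regions lay beside regions shared by all 4 lists. The gap to the nearest region in all 4 had a median of 3849 bp for Sec-Pro-only and 2312.5 bp for Ent-Pro-only regions. It was at most 1 kb for 189 Sec-Pro-only regions (31.6%, Wilson 95% interval 28.0 to 35.4) and for 379 Ent-Pro-only regions (37.5%, 34.5 to 40.5). It exceeded 10 kb for 198 (33.1%) and 253 (25%). A further region of the same class lay within 10 kb of 19 Sec-Pro-only regions (3.17%) and of 71 Ent-Pro-only regions (7.02%). None of these distances was computed for other regions or for random positions, so whether either class clusters was not tested. Across chromosomes, Sec-Pro-only regions made up between 0.353% (chromosome 5) and 0.862% (chromosome 14) of all regions. Ent-Pro-only regions made up between 0.877% (chromosome 4) and 1.32% (chromosome 7).

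Counted in bases rather than regions, most bases marked in 1 lineage only lay inside regions that all 4 lists marked. Bases marked in both Sec-Pro and no Ent-Pro library came to 0.866 Mb, 0.973% of the 89.0 Mb marked in any list. The reverse came to 1.26 Mb, 1.41%, whereas bases marked in all 4 came to 46.0 Mb, 51.7%. Of the Sec-Pro-only bases 69.4% lay inside regions that all 4 lists marked, and 13.3% in Sec-Pro-only regions. Of the Ent-Pro-only bases 66.0% lay inside regions that all 4 lists marked, and 15.3% in Ent-Pro-only regions. They were scattered over 14612 Sec-Pro-only blocks with a median of 36 bp and 19564 Ent-Pro-only blocks with a median of 40 bp. Only 2 blocks on either side reached 1 kb. The 51.7% of bases marked in all 4 lists lie inside regions that all 4 marked by definition. The share of all 89.0 Mb inside those regions was not computed. The 69.4% and 66.0% thus have no background beside them and may not be particular to lineage-only bases.

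The 5 Sec-Pro-only regions with the highest percentiles were compared with the other lists. Positions are 1-based in build mm9. On chromosome 6 at 121048203 to 121048915, peaks covered 397 bp in Rbpj-deleted and 713 bp in DBZ Sec-Pro and none in Ent-Pro. The percentiles there were 56.8 and 59.4. The H3K4me2 peak of mature goblet cells (GOB, from villi without Rbpj) covered all 713 bp. That of mature enterocytes (ENT, from villi of Atoh1-/- mice) covered 543 bp, and Ent-Pro H3K27ac covered 163 bp. On chromosome 10 at 88412951 to 88413366, at 261 and 239 bp in Sec-Pro, ENT covered 412 bp and GOB 183 bp. H3K27ac was called there in both progenitors. On chromosome 13 at 108390657 to 108391071, at 415 and 295 bp in Sec-Pro, the ENT list alone of the other 8 lists held a peak. On chromosome 6 at 83863926 to 83864237, at 312 and 180 bp in Sec-Pro, ENT and both DHS lists held one. On chromosome 17 at 67951416 to 67952847, at 749 and 1432 bp in Sec-Pro, none of the other 8 lists held a peak. Of these 5 regions 4 were marked in ENT, a list that marked 65.0% of all regions. GOB, which marked 61.2% of all regions, held a peak only at the region on chromosome 10 and the first on chromosome 6.

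The 5 Ent-Pro-only regions with the highest percentiles were all marked in ENT, which marked 60.4% of all Ent-Pro-only regions. On chromosome 5 at 64421599 to 64422103, peaks covered none in Sec-Pro, against 472 and 412 bp in Ent-Pro replicates 1 and 2, at percentiles 66.7 and 63.2. H3K27ac covered 450 bp of it in Sec-Pro, against 498 bp in Ent-Pro, although no H3K4me2 peak was called in Sec-Pro. On chromosome 4 at 13519889 to 13520785, at 660 and 897 bp in Ent-Pro, H3K27ac was called in Ent-Pro and not in Sec-Pro. GOB covered 239 bp there and ENT 267 bp. Next came chromosome 13 at 48687797 to 48688135. The remaining ones were both on chromosome 6, at 56761175 to 56761515 and at 145054759 to 145055174. The last of these carried H3K27ac over all 416 bp in both progenitors, and GOB covered 330 bp of it and ENT 312 bp. GOB held no peak at the regions on chromosomes 5 and 13 or at the other on chromosome 6.

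The Sec-Pro-only region with the longest cover in both libraries was selected after its values were seen. It lay on chromosome 17 at 27861568 to 27864258, where peaks covered 1030 bp in Rbpj-deleted and 2691 bp in DBZ Sec-Pro and none in Ent-Pro. The scores were in percentile 21.8 of the Rbpj-deleted list and 52.2 of the DBZ list. The H3K4me2 peak of GOB covered all 2691 bp, and the mark was not called in ENT or in Lgr5+ stem cells (ISC). H3K27ac covered 305 bp in Sec-Pro, against none in Ent-Pro, and ATOH1 binding, mapped in Sec-Pro, covered 409 bp. No DHS was called in either progenitor. The region was therefore marked in each secretory H3K4me2 list and in no absorptive or stem cell list of the series.

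The longest Ent-Pro-only regions, selected in the same way, were shorter. On chromosome 6 at 56640153 to 56641226, peaks covered none in Sec-Pro, against 843 and 1056 bp in Ent-Pro, and none of the other 8 lists held a peak. On chromosome 8 at 107785819 to 107786563, peaks covered none in Sec-Pro, against 695 and 726 bp in Ent-Pro. H3K27ac covered 426 bp of this position in Sec-Pro, against 460 bp in Ent-Pro. H3K4me2 covered 539 bp of it in GOB and 727 bp in ENT.

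The longest block of bases marked in both Sec-Pro and no Ent-Pro list lay inside a region that all 4 lists marked. The block, chosen for its length after values were seen, spanned 1078 bp on chromosome 6 at 64679192 to 64680269. Peaks of the surrounding region, 64676331 to 64685715, covered 4061 and 8694 bp in Rbpj-deleted and DBZ Sec-Pro, against 8260 and 7813 bp in Ent-Pro replicates 1 and 2. Both Ent-Pro libraries were thus marked on either side and interrupted within. Peaks stopped at 64679174 and began again at 64680300 in Ent-Pro replicate 1, and stopped at 64679191 and began again at 64680302 in replicate 2. The Ent-Pro H3K27ac list broke off between 64679181 and 64680353. The Ent-Pro DHS list broke off between 64679178 and 64680089, so 4 lists from Atoh1-/- crypts shared nearly the same left edge. In Sec-Pro, H3K27ac covered 871 bp of the block, DHS 759 bp and ATOH1 377 bp. H3K4me2 covered the whole block in ISC and GOB and 1033 bp in ENT, although ENT are also labelled Atoh1-/-. RefSeq places Atoh1 on chromosome 6 in build GRCm38.p6. Its position in mm9 was not used here, so whether the gap is the deleted sequence, and whether the ENT peak goes against its label, was not tested. Rbpj, on chromosome 5, could not be checked either.

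**Figure D3:**
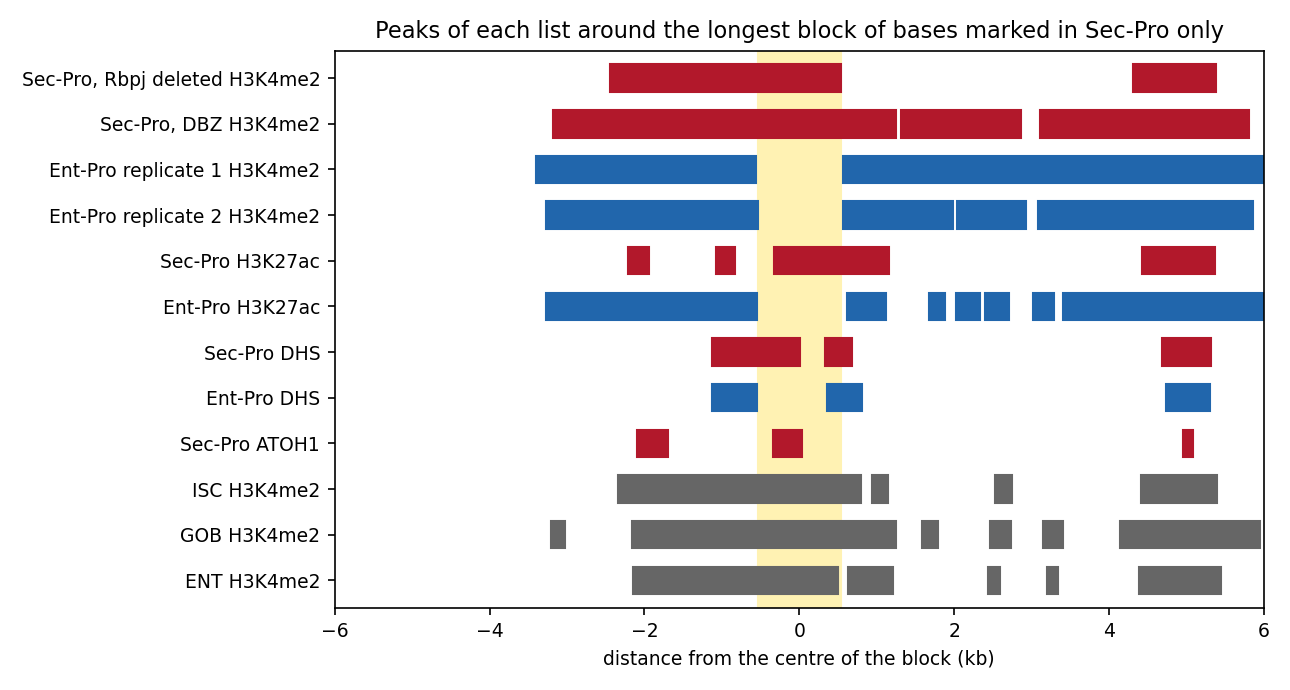
Peaks of all 12 lists (bars, secretory progenitors red, enterocyte progenitors blue, other cells grey) by distance from the centre of the 1078 bp block marked in both Sec-Pro and no Ent-Pro H3K4me2 list (yellow), in kb. Bars that reach the right margin continue beyond it. Every Ent-Pro list is interrupted over the block or the larger part of it, and every other list has a peak in it.

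Other long blocks changed the extent of a shared region. On chromosome 4, H3K4me2 in the region 106977585 to 106980418 covered 2421 and 2834 bp in Sec-Pro, against 1381 and 1115 bp in Ent-Pro. The Sec-Pro-only block there was 974 bp long. On chromosome 2, in the region 166397585 to 166399250, it covered 362 and 416 bp in Sec-Pro, against 1603 and 1661 bp in Ent-Pro. The Ent-Pro-only block of 1159 bp there was the longest on that side, and GOB and ENT both covered all of it.

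Width was next tested at each of the 42470 regions that all 4 lists marked, as log2 of the bases covered, with limma and the kind of list (shortest peak 146 or 200 bp) as covariate. No region passed an adjusted p of 0.05 in either direction (0% of 42470 each way), and the lowest adjusted p was 0.959 (limma, Benjamini-Hochberg). At an unadjusted p under 0.05, 788 regions (1.86%) were wider in Sec-Pro and 1229 (2.89%) wider in Ent-Pro, together 4.75% of those tested. The difference of Sec-Pro minus Ent-Pro had a median of 0.00, and its middle 95% ran from -0.73 to 0.59, on the log2 scale. The 95% interval of a single region, not adjusted for the number of regions, had a median half-width of 0.45 on the log2 scale. The adjusted threshold asked for far more, since regions with differences of 1.97 and -2.22 did not pass it (limma adjusted p = 0.959). Differences well above 0.45 could thus go uncalled with 2 libraries a lineage. Limma with a trend in the mean also called 0 regions.

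Score rank, taken within each library over the same 42470 regions and turned into normal scores, gave a like picture. No region passed an adjusted p of 0.05 in either direction (0% each way), with a lowest adjusted p of 0.925 (limma, Benjamini-Hochberg). At an unadjusted p under 0.05, 1122 regions (2.64%) ranked higher in Sec-Pro and 1136 (2.67%) in Ent-Pro, together 5.32%. The middle 95% of differences ran from -0.71 to 0.72 in normal score units, with a median half-width of the 95% interval of 0.63. Limma with a trend in the mean also called 0 regions, with a lowest adjusted p of 0.284. The rank compares regions within a library and is no measure of the level of the mark.

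Width differences in 1 pair of lists did not recur in the other. The pair of DBZ Sec-Pro and Ent-Pro replicate 1 shares no library with the pair of Rbpj-deleted Sec-Pro and Ent-Pro replicate 2. Across the 42470 regions, their log2 width differences correlated with Pearson's r = 0.00942 and Spearman's rho = 0.0195, and their rank differences with r = 0.00986 and rho = 0.0201. These are descriptions over regions of the same 4 libraries, not a test. In the DBZ pair 1918 regions were at least 1.5-fold wider in Sec-Pro and 2149 in Ent-Pro. In the Rbpj pair the numbers were 2615 and 3949. At least 1.5-fold in both pairs held for 277 regions wider in Sec-Pro (0.652% of 42470) and 471 wider in Ent-Pro (1.11%). A further 741 regions (1.74%) were as far apart in opposite directions in the 2 pairs. At 2-fold the counts were 41 (0.0965%) wider in Sec-Pro, 98 (0.231%) wider in Ent-Pro and 147 (0.346%) in opposite directions. At either fold, regions that differed in the same direction in both pairs were thus about as many as those that differed in opposite directions.

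**Figure D4:**
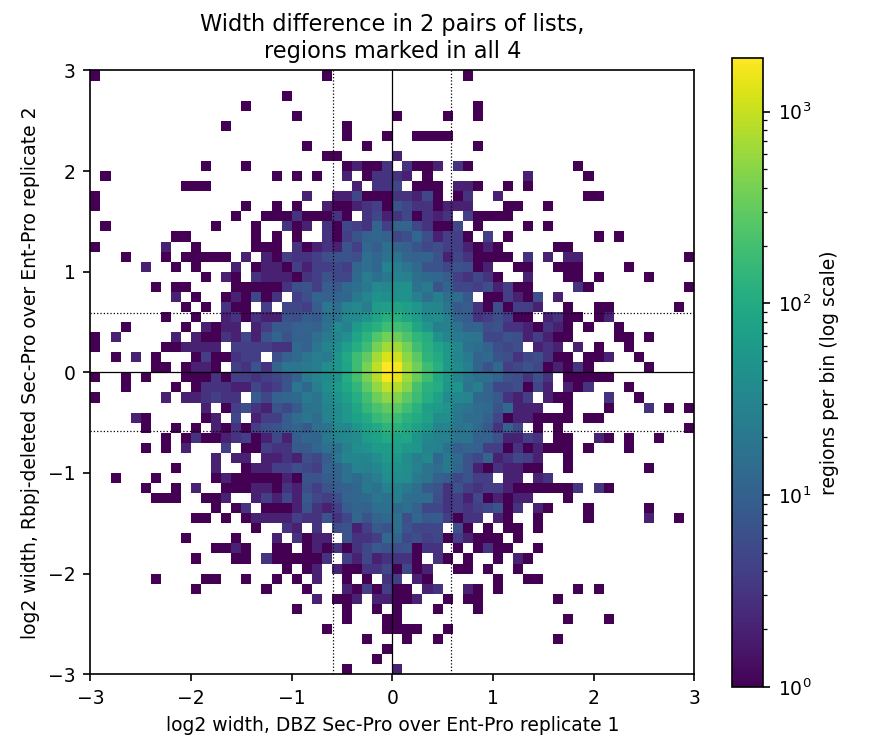
Log2 ratio of H3K4me2 width, Sec-Pro over Ent-Pro, at the 42470 regions marked in all 4 lists, for the DBZ pair (x axis) and the Rbpj pair (y axis), with colour for the number of regions per bin (log scale) and dotted lines at 1.5-fold. The cloud is centred on 0 and has no slant, with 277 regions in the upper right and 471 in the lower left corner beyond the dotted lines.

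Since no region passed the adjusted threshold, the following ones are named in order of their unadjusted p for width. On chromosome 19 at 27390777 to 27392209, peaks covered 944 and 1325 bp in Rbpj-deleted and DBZ Sec-Pro, against 335 and 242 bp in Ent-Pro replicates 1 and 2. Both Sec-Pro values were above both Ent-Pro values, with a log2 difference of 1.97 ± 0.116 (SE) and an adjusted p of 0.959 (limma). Sec-Pro H3K27ac covered 253 bp there and Ent-Pro H3K27ac none. On chromosome 8 at 36717266 to 36718347, the mark covered 678 and 919 bp in Sec-Pro, against 233 and 200 bp in Ent-Pro. On chromosome 4 at 140721510 to 140722536, it covered 780 and 918 bp in Sec-Pro, against 216 and 238 bp in Ent-Pro. H3K27ac was nearly equal there, at 908 bp in Sec-Pro, against 912 bp in Ent-Pro. On chromosome 5 at 120701778 to 120702787, the mark covered 563 and 1010 bp in Sec-Pro, against 468 and 224 bp in Ent-Pro. The region on chromosome 4 with the 974 bp block, described above, was the fifth.

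On the other side, the regions with the lowest unadjusted p had a wide mark in both Ent-Pro libraries. On chromosome 10 at 79005869 to 79007796, peaks covered 476 and 425 bp in Sec-Pro, against 1606 and 1775 bp in Ent-Pro, a log2 difference of -1.91 ± 0.116 (SE; limma adjusted p = 0.959). H3K27ac covered 1911 bp of this region in Sec-Pro, against 1865 bp in Ent-Pro, so the other mark did not differ in extent there. On chromosome 19 at 3955402 to 3956746, H3K4me2 covered 200 and 262 bp in Sec-Pro, against 1345 and 840 bp in Ent-Pro. The region on chromosome 2 described above came next, followed by chromosome 14 at 69906320 to 69907797, with 452 and 321 bp in Sec-Pro, against 1066 and 1478 bp in Ent-Pro. On chromosome 17 at 35153366 to 35154290, it covered 257 and 310 bp in Sec-Pro, against 925 and 788 bp in Ent-Pro. All 5 were also marked in GOB and in ENT, and so were the 5 regions named above as wider in Sec-Pro. Of the regions in all 4 lists, 89.7% were marked in GOB and 94.8% in ENT.

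By score rank, 2 regions among those with the lowest unadjusted p were strong in every library. On chromosome 11 at 100709694 to 100712966, the score lay in percentile 99.9 in both Sec-Pro libraries, against 88.6 and 94.1 in Ent-Pro replicates 1 and 2. Its width did not separate the lineages, at 3014 and 3079 bp in Sec-Pro, against 3035 and 2130 bp in Ent-Pro. On chromosome 16 at 85800093 to 85804929, the percentiles were 99.2 and 99.3 in Sec-Pro, against 79.2 and 76.5 in Ent-Pro. DHS covered 1076 bp there in Sec-Pro, against 1020 bp in Ent-Pro. The region on chromosome 10 that was wider in Ent-Pro also ranked higher there, at percentiles 4.84 and 4.48 in Sec-Pro, against 37.6 and 53.0 in Ent-Pro. On chromosome 1 at 193504972 to 193505702, the percentiles were 1.40 and 2.09 in Sec-Pro, against 26.4 and 21.4 in Ent-Pro. All of these missed the threshold (limma adjusted p = 0.925).

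The libraries of 1 lineage were no more alike than libraries of opposite lineages. Across the 42470 regions, Pearson's r of the log2 widths was 0.886 for the pair of Sec-Pro libraries and 0.910 for the pair of Ent-Pro libraries. Between lineages r was 0.931 for the DBZ pair and 0.912 for the Rbpj pair, and 0.903 and 0.891 for the pairs of unequal shortest peak. Both pairs within a lineage were of unequal shortest peak, so the means of r and rho given next mix lineage with the kind of list. The mean r was 0.898 within and 0.909 between lineages, a difference of -0.0110 (exact one-sided permutation p = 0.667, where 0.333 is the smallest possible). At unequal shortest peak, both values between lineages (0.903 and 0.891) lay between the values within lineages (0.886 and 0.910). For scores, the mean Spearman's rho was 0.894 within and 0.907 between lineages, a difference of -0.0136 (exact one-sided permutation p = 1). The share of regions at least 1.5-fold apart in width was 23.1% for the 2 Sec-Pro libraries and 19.5% for the 2 Ent-Pro libraries. Between lineages it was 9.58% in the DBZ pair and 15.5% in the Rbpj pair, both of equal shortest peak. At unequal shortest peak, as within the lineages, it was 21.2% for Rbpj-deleted Sec-Pro and Ent-Pro replicate 1. For DBZ Sec-Pro and Ent-Pro replicate 2 it was 21.5%, so like pairs differed about as much within as between lineages.

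The widest domains behaved in the same way. Broad domains of H3K4 methylation, studied mainly for the trimethylated form, are known to mark genes of cell identity in many cell types. Of the 1000 widest peaks of a list, 65.1 ± 3.43% overlapped one of the 1000 widest of the other library of the same lineage (SD, n = 2 pairs). The share was 71.3 ± 0.849% with the library of the other lineage and equal shortest peak, and 66.6 ± 2.33% with that of unequal shortest peak (n = 2 pairs each). Among the widest peaks, 473 of Rbpj-deleted Sec-Pro, 472 of DBZ Sec-Pro, 467 of Ent-Pro replicate 1 and 474 of Ent-Pro replicate 2 were among the widest in all 4 lists. The number shared with the same lineage alone was 27 and 28 in Sec-Pro, against 32 and 32 in Ent-Pro. Each of these overlapped a peak in both libraries of the other lineage, so no widest domain was shared by 1 lineage and missing from the other.

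The other lists of the series, which had no part in finding the regions, differed between the Sec-Pro-only and Ent-Pro-only regions. H3K27ac of Ent-Pro was called at 187 of 599 Sec-Pro-only regions (31.2%, Wilson 95% interval 27.6 to 35.0), against 704 of 1012 Ent-Pro-only regions (69.6%, 66.7 to 72.3). H3K27ac of Sec-Pro was called at 216 Sec-Pro-only regions (36.1%, 32.3 to 40.0), against 579 Ent-Pro-only regions (57.2%, 54.1 to 60.2). The Ent-Pro-only regions thus carried H3K27ac more often in either progenitor, and 541 of them carried it in both, against 149 of the Sec-Pro-only regions. Regions in exactly 2 lists, 1 of either lineage, were also split. Sec-Pro H3K27ac was called at 68.1% (with Ent-Pro replicate 2) and 54.0% (replicate 1) of those with Rbpj-deleted Sec-Pro. With DBZ Sec-Pro it was 29.7% and 32.5%. Among regions in exactly 2 lists this share was thus lower wherever DBZ Sec-Pro was 1 of them, whatever the lineage of the other. Over all 91486 regions the shares were 54.7% for Sec-Pro H3K27ac and 59.1% for Ent-Pro H3K27ac. With 1 library for each of these assays there is no test between the lineages, and the intervals cover counting error only. The labels do not say whether the Sec-Pro H3K27ac, DHS and ATOH1 libraries came from Rbpj-deleted or from DBZ crypts.

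The H3K27ac difference was present at each region length. Among regions under 300 bp, Ent-Pro H3K27ac was called at 31.7% of Sec-Pro-only and 65.4% of Ent-Pro-only regions, beside 45% of the 80 regions in all 4 lists of that length. Among those of 500 bp or more it was called at 27.6% and 72.8%, beside 85.1% in all 4 lists. From 300 bp to under 500 bp the shares were 32.8% of Sec-Pro-only and 70.8% of Ent-Pro-only regions, beside 68.0% of the regions in all 4 lists of that length. The difference rested in part on single libraries. For Ent-Pro H3K27ac it was -38.3 percentage points, Sec-Pro-only minus Ent-Pro-only, and stayed below 0 in every alternative. It was -52.6 points without Rbpj-deleted Sec-Pro, -30.8 without DBZ Sec-Pro, -18.5 without Ent-Pro replicate 1 and -0.799 without Ent-Pro replicate 2, where the 95% interval included 0. For Sec-Pro H3K27ac it was -21.2 points, and -46.4, -8.92, -11.8 and 6.80 points when the libraries were left out in the same order, so that the direction turned without Ent-Pro replicate 2. Within the DBZ pair the differences were -23.0 points for Ent-Pro and -20.7 for Sec-Pro H3K27ac. Within the Rbpj pair they were -18.5 and -5.88 points.

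The stem cell list gave the opposite order. H3K4me2 was called in ISC at 87 Sec-Pro-only regions (14.5%, Wilson 95% interval 11.9 to 17.6), against 61 Ent-Pro-only regions (6.03%, 4.72 to 7.67). Both were below the 44.1% of all regions and the 80.1% of regions in all 4 lists, which are longer. Under 300 bp, ISC marked 11.6% of Sec-Pro-only, 5.70% of Ent-Pro-only and 11.25% of the 80 regions in all 4 lists. The difference of 8.50 percentage points was not stable. It was 0.658 points without Rbpj-deleted Sec-Pro, -19.1 without DBZ Sec-Pro, 24.7 without Ent-Pro replicate 1 and 9.96 without Ent-Pro replicate 2. Within the pairs it was 1.60 points for the DBZ pair and 0.280 for the Rbpj pair, where the 95% interval included 0.

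The mature cell lists were set beside the same classes. ENT marked 310 Sec-Pro-only regions (51.8%, Wilson 95% interval 47.8 to 55.7), against 611 Ent-Pro-only regions (60.4%, 57.3 to 63.3). GOB marked 42.2% and 43.8% of them. Over all regions the shares were 65.0% for ENT and 61.2% for GOB. Among Sec-Pro-only regions 53 were marked in GOB and not in ENT, and 110 in ENT and not in GOB. Among Ent-Pro-only regions the numbers were 66 and 234, among regions in all 4 lists 630 and 2803, and among all 91486 regions 6087 and 9521. Marks of ENT alone thus outnumbered those of GOB alone in each of these sets, and by a smaller factor in Sec-Pro-only than in Ent-Pro-only regions, a difference that was not tested. Whether the mature lists differ in depth was not tested, since read numbers are unknown. ATOH1 binding was called at 25 Sec-Pro-only regions (4.17%) and 27 Ent-Pro-only regions (2.67%), below the 9.26% of all regions. DHS of Sec-Pro was called at 6.68% of Sec-Pro-only and 4.25% of Ent-Pro-only regions, and DHS of Ent-Pro at 8.18% and 6.32%, against 24.8% and 28.8% of all regions. Few regions of either class were thus open or bound in these lists.

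**Figure D5:**
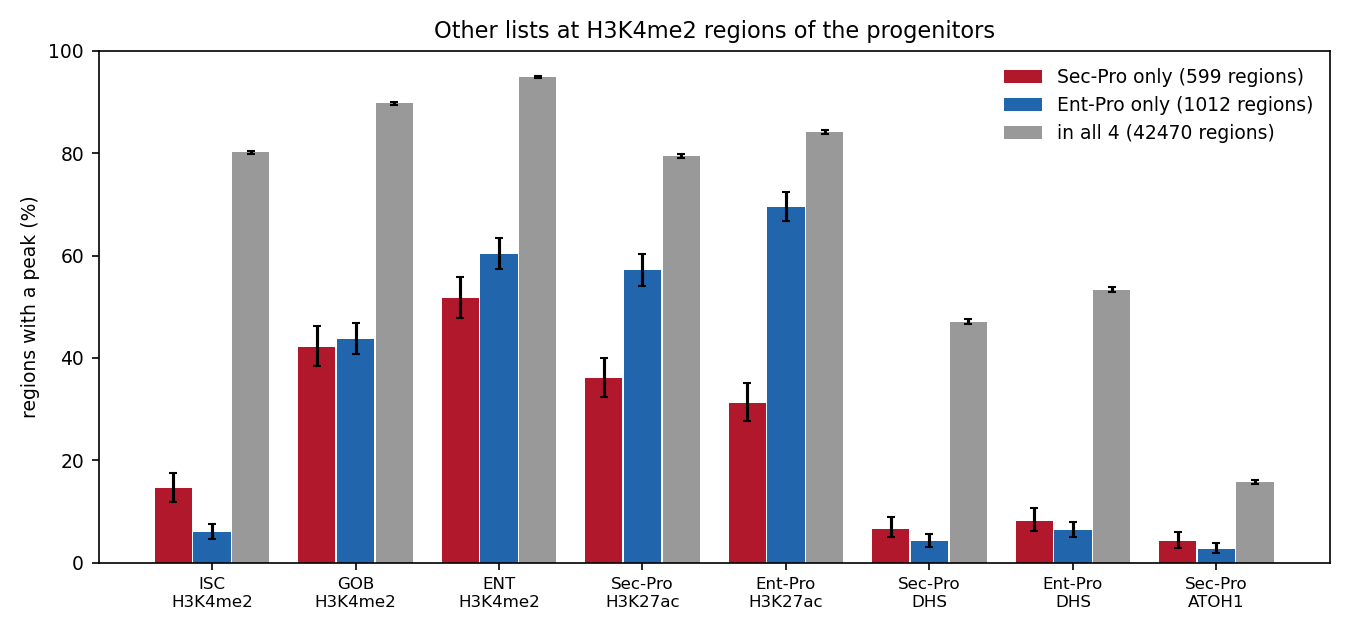
Share of regions (percent) with a peak in each of the 8 other lists, for Sec-Pro-only regions (red, 599), Ent-Pro-only regions (blue, 1012) and regions in all 4 H3K4me2 lists (grey, 42470), with Wilson 95% intervals that cover counting error only. Ent-Pro-only regions carry H3K27ac more often than Sec-Pro-only regions in either progenitor list, and both classes lie below the regions in all 4 lists in every list.

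The shared regions that were at least 1.5-fold wider in 1 lineage in both pairs were set beside the same lists. These classes were chosen after the fit had called no region. H3K27ac of Sec-Pro was called at 59.2% of the 277 regions wider in Sec-Pro and 86.8% of the 471 wider in Ent-Pro. H3K27ac of Ent-Pro was called at 57.8% and 91.5% of them. Over the 42470 regions in all 4 lists the shares were 79.5% for Sec-Pro and 84.1% for Ent-Pro H3K27ac, so the regions wider in Sec-Pro lay below these shares and those wider in Ent-Pro somewhat above. ISC marked 57.4% of the regions wider in Sec-Pro and 32.9% of those wider in Ent-Pro, both below the 80.1% of regions in all 4. Where both mature lists had a peak, log2 of GOB over ENT width had a median of -0.10 at 190 regions wider in Sec-Pro, -0.28 at 330 regions wider in Ent-Pro and -0.07 at 37474 regions in all 4. Where both progenitors had H3K27ac, log2 of Sec-Pro over Ent-Pro H3K27ac width had a median of -0.01 at 144 regions wider in Sec-Pro and -0.07 at 401 regions wider in Ent-Pro. It was -0.08 at 33068 regions in all 4. The extent of H3K27ac therefore differed little between the classes, and these medians are given without a test.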

How the data were processed

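The authors deposited 1 peak list per library, with chromosome, start, end, name and a score per peak and no header. The submitters' processing notes name build mm9 and the tools MACS2, Bowtie 0.12.7 and CASAVA 1.7. The sources used here give no parameters, no read numbers and no use of the input DNA samples, which were not analysed here. The deposited score is not named in the files and served only to rank peaks within a list. Peak start and end, as the authors deposited them, were converted to 1-based positions, and width is end minus start as deposited.

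Peaks on assembled chromosomes were handled with pandas 2.3.3, SciPy 1.17.1 and NumPy 2.4.6 under Python 3.11.15. Plots were made in matplotlib 3.10.9. Overlapping or adjoining peaks of the 4 lists were merged into regions, and 1 bp of overlap counted as presence. Covered bases (log2) and the normal score of the rank of the highest peak score were fitted over all regions marked in all 4 lists with limma 3.58.1 in R 4.3.3, with the kind of list (shortest peak) as covariate and Benjamini-Hochberg adjustment, called at adjusted p under 0.05. Values with 1 number per library were tested by exact permutation. The counting was tested on copies of the DBZ list with known peaks removed, and the fit on simulated widths. The simulated spread was the same at every region, so that test does not show what the fits to the real lists could call. Shares have Wilson 95% intervals, which cover counting error only.

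The regions, classes and tests were chosen with earlier results of these data known. Regions were named by rule, 5 a side, as the lineage-only regions with the highest lower percentile, and, since none was called, by unadjusted p among shared regions of at least 500 bp with the same sign in both pairs. Wide regions and long blocks were added after values were seen. Alternatives were other score and width limits, lists of equal length, autosomes, merging within 1 kb, other measures and normalizations, a replicate block, each pair alone and each library left out. No gene annotation of build mm9 was used here, so no gene or sequence is given for a position, and a planned comparison of gene lists was not run.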

Additional observations from a re-analysis of the deposited data

How the results depend on the processing

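No region was called for width or rank under any of the alternatives run, and the number at an unadjusted p under 0.05 lay between 559 and 2584 for width and between 757 and 2350 for rank. The replicate block called 0 regions for either, with 559 and 757 at an unadjusted p under 0.05. The Sec-Pro numbers come from accession order and pair nothing, so the block is no paired analysis.

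Counts are given as Sec-Pro-only and Ent-Pro-only regions, 599 and 1012 as reported. They were 286 and 415 when no peak of the other lineage lay within 1 kb, 148 and 263 in the upper 50% of each list, 346 and 555 with peaks of at least 500 bp, and 308 and 459 with peaks within 1 kb merged. They were 16942 and 13628 within the DBZ pair, 8678 and 10507 within the Rbpj pair, and between 917 and 15174 and between 1795 and 11050 with 1 library left out. A single pair or a library left out asks for fewer lists and so loosens the rule. Lineage-only bases were 0.450 and 0.772 Mb in the upper 50%, 11.1 and 10.03 Mb in the DBZ pair, 8.15 and 8.86 Mb in the Rbpj pair, and between 1.52 and 9.45 and between 2.64 and 7.51 Mb with 1 library left out.

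The difference in stem cell H3K4me2 was 12.0 points (1 kb apart), 20.9 (upper 50%), 13.3 (equal length), 13.4 (at least 500 bp), 1.60 (DBZ pair) and 0.280 (Rbpj pair), and between -19.1 and 24.7 with 1 library left out. For Sec-Pro H3K27ac it was -27.3 (upper 50%), -26.5 (at least 500 bp) and -5.88 (Rbpj pair), and between -46.4 and 6.80. For Ent-Pro H3K27ac it was -32.9, -33.1, -23.0 (DBZ pair) and -18.5 (Rbpj pair), and between -52.6 and -0.799. These alternatives for the other lists were chosen after seeing the data, as was the limma trend.

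Overlap of the widest peaks was 69.2% within lineages, 75.0% across lineages with equal and 69.4% with unequal shortest peak at 2000 peaks, and 69.35% and 63.9% across lineages at 500. Median width differed by -17.5 bp with peaks of at least 200 bp and by -9.5 bp at regions in all 4. The cause of these movements was not tested. Peaks missing from a list cannot be told apart from peaks below its depth.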
